A study of Nicotiana tabacum and Solanum tuberosum subsp. andigenum and Nicotiana sylvestris with 28 samples.

Results

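Leaves of the day-neutral tobacco Nicotiana tabacum cv Hicks were compared after 15 short days (SD) on 3 of the 28 arrays of the series, chosen by their titles. Each array carried RNA of plants given 41 long days (LD) followed by 15 SD, labelled with Cy5, and RNA of plants that stayed in LD for 56 days, labelled with Cy3. Chambers were lit for 8 h a day in SD, at 160 μmol photons, and for 16 h in LD, at 80 μmol photons (per square metre and second), at 22 °C throughout. Plants of either treatment were taken 14 h after lights-on. By the methods this was 6 h into the night in SD and 2 h before dusk in LD, while the sample labels put it 8 h into the night in SD and directly before dusk in LD. Day length, irradiance and light or darkness at harvest cannot be told apart in these ratios.

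Leaves perceive day length, and in photoperiodic plants a signal made there sets the time of flowering. Hicks is day-neutral: its flowering date does not depend on day length. MM, a line that differs from Hicks by the Maryland Mammoth allele, needs SD to flower. Day length also sets how leaves handle carbon: starch made in the light is broken down at night, and its breakdown starts with phosphate added to the granule by glucan water dikinase. The measured quantity was the log2 LD/SD ratio of a potato cDNA clone. A value below 0 means more transcript in SD leaves and a value above 0 more transcript in LD leaves. Tobacco RNA was read on potato clones, so a ratio can include related tobacco transcripts that bind the same clone. The table holds ratios and no levels, so leaf markers such as PSBR, a photosystem II protein, could not be used to check the tissue.

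Each of the 3 arrays gave ratios for 5341 to 6231 clones, with medians of -0.02 to 0.00, and the replicate spots of a clone had a Pearson's r of 0.82 to 0.88 on an array. A spot was used only where it had a value on all 3 arrays, which left 7380 of 13043 spots and 4231 clones. Of these, 91 clones of 55 genes carry a single gene symbol, 437 carry a locus number with no description, 69 carry several symbols, and 3634 have no symbol and are given by the number of their first spot. The spread of the ratios was unequal, with an SD over clones of 0.42, 0.55 and 0.61 in replicates 1, 2 and 3.

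In Hicks leaves after 15 SD, 26 of 4231 clones changed by at least 2-fold (0.615% of clones tested), with 16 higher in SD (0.378%) and 10 higher in LD (0.236%). To be called, a clone needed a limma p of at most 0.05, a Benjamini-Hochberg adjusted p of at most 0.1, and a mean at least 1 log2 unit away from 0. Every called clone had the same sign on all 3 arrays. A ratio cannot tell fewer cells of a type from less RNA per cell. Only STP-1, a starch phosphorylase, has a gene symbol among them. Of the others, 21 clones have no symbol, 3 have a locus number and 1 has several.

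The clones higher in SD included the largest ratios of this day. Clone 158627 had ratios of -3.12, -2.79 and -4.08, a mean of -3.33 (SE 0.27, n = 3, adjusted p = 0.0266 from limma), which is 10.1-fold more transcript in SD leaves. Clone 137151 had -2.69, -2.22 and -3.40 (mean -2.77, SE 0.25), and clone 153796 had -1.84, -2.06 and -2.0 (mean -1.96, SE 0.17, from 1 spot), each with the same adjusted p of 0.0266. These 3 clones, all without a symbol, were the only ones that also passed at an adjusted p of 0.05. A further clone higher in SD, of the locus LOC102591352, had -1.36, -1.15 and -1.84 (mean -1.45, SE 0.20, adjusted p = 0.0970). On single arrays the 16 clones ranged between -4.08 and -0.89, and 4 of them were at least 4-fold higher in SD. The ratios were stored to 2 decimals on the linear scale, so a log2 value near -3 is known only to steps of 0.12 and one near 2 to steps of 0.0036.

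The called clones higher in LD spanned 2.25-fold to 4.2-fold. The one with the largest mean, clone 156418, had 1.34, 2.60 and 2.27 (mean 2.07, SE 0.27, adjusted p = 0.0939). STP-1, starch phosphorylase, which releases glucose 1-phosphate from glucan chains, had 0.96, 1.64 and 1.76 (mean 1.45, SE 0.22, adjusted p = 0.0970), 2.74-fold less transcript in SD leaves. Its spots had 0.77, 1.66 and 1.58 on one and 1.14, 1.63 and 1.95 on the other, and without replicate 2 its adjusted p was 0.206. The locus LOC102585195 was called on both of its clones, with 1.45, 1.41 and 1.20 on one and 1.25, 0.88 and 1.48 on the other (means 1.36 and 1.20). These clones share a target and are not separate evidence.

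**Figure D1:**
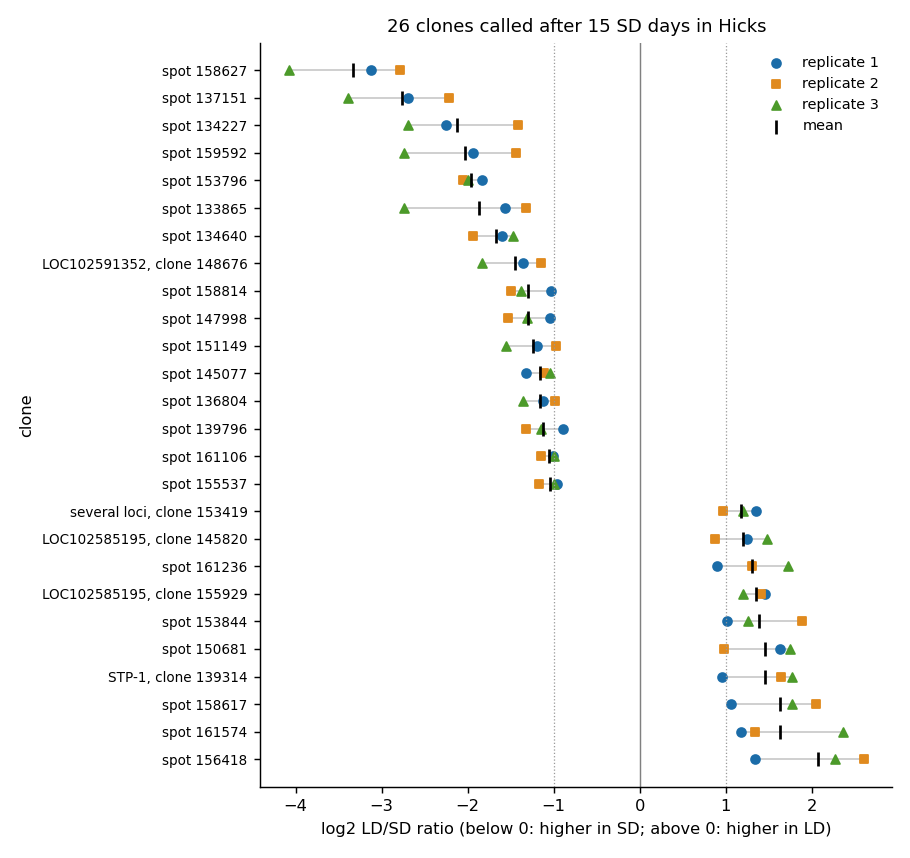
Log2 LD/SD ratio of the 26 called clones on each of the 3 arrays (coloured points) with the mean (black bar), clones in rows, dotted lines at a ratio of 2-fold. The 16 clones higher in SD reach -4.08 on 1 array and the 10 clones higher in LD reach 2.60, and no point crosses 0.

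The calls stand close to the limit: 22 of the 26 had an adjusted p above 0.09, and 18 shared the value 0.0970. No clone was called without replicate 2 (805 had an unadjusted p of 0.05 or less in limma) or with the methods' t-test (0 with its q-value and 0 with Benjamini-Hochberg, 444 at an unadjusted p of 0.05 or less), against 65 called without replicate 1 and 110 without replicate 3. The balance of directions also moved: when the arrays were scaled to the same spread, 27 clones were higher in SD and 41 higher in LD, and with the dye term subtracted 28 and 41. SD was always labelled with Cy5 in Hicks, so a dye effect was not balanced out. The dye term comes from 1 potato dye-swap pair, and its own error is not part of the p-values after subtraction.

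With the called clones included, 637 clones had an unadjusted p of 0.05 or less in limma (15.1%), 227 with more transcript in SD (5.37%) and 410 with more in LD (9.69%). In all, 98 clones averaged at least 2-fold, 27 toward SD (0.638%) and 71 toward LD (1.68%), and 72 of them were not called, 11 toward SD and 61 toward LD. The clones that averaged 2-fold toward SD had a median SD over the arrays of 0.42, against 0.74 for those toward LD and 0.31 for all clones. The arrays thus differed from each other more for the clones toward LD.

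Clones with a gene symbol leaned to the LD side as a class: 66 of 91 had a mean above 0 (72.5%), 27 were positive on every array (29.7%) and their median was 0.19, against 2200 of 4231 (52%), 905 (21.4%) and 0.01 over all clones. These shares count clones and not genes. Of the 66 clones, 14 are of METK1 or MS and 8 are of GAPDH, and clones of the same gene share a target. The listed genes are part of this class, and their counts are to be read against it with this limit. Among the genes of starch breakdown, all 3 clones measured were on the LD side, and 1, that of STP-1, was called, where 0.236% of all clones were called in this direction. R1, the glucan water dikinase that starts the attack on the granule, had 2 clones. One had 1.5, 0.06 and 1.43 (mean 1.00, SE 0.31, adjusted p = 0.234 from limma), and the other 1.01, -0.28 and 1.51 (mean 0.75, SE 0.34, adjusted p = 0.366). On both clones replicates 1 and 3 were high and replicate 2 was near 0. GBSS, granule-bound starch synthase, which makes amylose, was the only gene of starch synthesis measured, on 1 of 2 clones, with 0.66, -0.10 and 2.46 (mean 1.01, SE 0.45, adjusted p = 0.364). Its arrays ranged more widely than those of STP-1, with the highest value in replicate 3. The alpha-amylase AMYA1 had a value on 1 array only, 1.38 in replicate 3.

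The sugar nucleotide and sucrose genes were on the opposite side, with all 3 clones of 2 genes negative on every array and none called. Over all clones 769 of 4231 were negative on every array (18.2%), and of those with a symbol 6 of 91. Of the 3 clones 2 are of STUGE51 and share a target. STUGE51, a UDP-glucose epimerase, which interconverts UDP-glucose and UDP-galactose, had -1.24, -0.74 and -1.58 on one clone (mean -1.18, SE 0.21, adjusted p = 0.113). Its other clone had -0.78, -0.20 and -1.60 (mean -0.86, SE 0.28, adjusted p = 0.250). Replicate 3 was the lowest and replicate 2 the highest on both. The first of these clones passed the limit, with a mean of -1.21, when the arrays were scaled to the same spread (adjusted p = 0.0714 from limma), and with a mean of -1.13 with the dye term subtracted (adjusted p = 0.0866). The latter p leaves out the error of the dye term. PAIN-1, the vacuolar acid invertase that splits stored sucrose, had -0.41, -0.47 and -0.51 (mean -0.47, SE 0.17, from 1 spot, adjusted p = 0.272), the narrowest spread of the 3 clones.

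In aromatic and phenylpropanoid synthesis the leading clone was that of SHKA, the DAHP synthase at the entry of the shikimate pathway. SHKA had 0.79, 0.71 and 1.78 (mean 1.09, SE 0.25, adjusted p = 0.164 from limma) and was above 0 on every array. Scaled to the same spread, it had a mean of 1.07 and passed the limit (adjusted p = 0.0790). PPO, a polyphenol oxidase that oxidises phenolics in damaged leaves, had -0.60, 0.49 and 1.36 (mean 0.41), and FLS, flavonol synthase, had 0.45, -0.36 and 0.87 (mean 0.32). The arrays of PPO and FLS lay on both sides of 0, their means were -0.08 and 0.00 with the dye term subtracted, and no clone of this list was called. The flavanone hydroxylase F3H, of the flavonoid branch, had a value in replicate 3 alone, 1.81.

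Methionine and S-adenosylmethionine synthesis was measured on 14 clones, the whole of this list on the array. All 14 means were above 0 (median 0.43), and 8 clones were positive on every array. No clone of the list was called in limma (4 at an unadjusted p of 0.05 or less) or with the methods' t-test. With the dye term subtracted, 1 METK1 clone was at -0.01, and 1 MS clone was called, with a mean of 1.01 (adjusted p = 0.0869 from limma). Its mean was 0.64 without that step, and the p leaves out the error of the dye term. Among all clones with a symbol, these 14 included, 72.5% had a mean above 0 and 29.7% were positive on every array. The 14 clones stand for 2 genes and are not separate evidence. MS, methionine synthase, had 5 clones with means of 0.42 to 0.64 (lowest adjusted p 0.229). The METK1 clones, of S-adenosylmethionine synthetase, which makes the methyl donor of the cell, had means of 0.11 to 0.70 over 9 clones (lowest adjusted p 0.266). The arrays ranked differently for these enzymes. The 9 METK1 clones had medians of 0.17, -0.01 and 0.94 in replicates 1, 2 and 3, and the 5 MS clones had 0.66, 0.78 and 0.12. Replicate 3 was thus the highest array for METK1 and the lowest for MS. The clones of a gene lay closer together on an array, with an SD between clones of 0.235 for METK1 and 0.177 for MS, than the arrays did, with an SD of 0.505 for METK1 and 0.352 for MS between their medians.

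**Figure D2:**
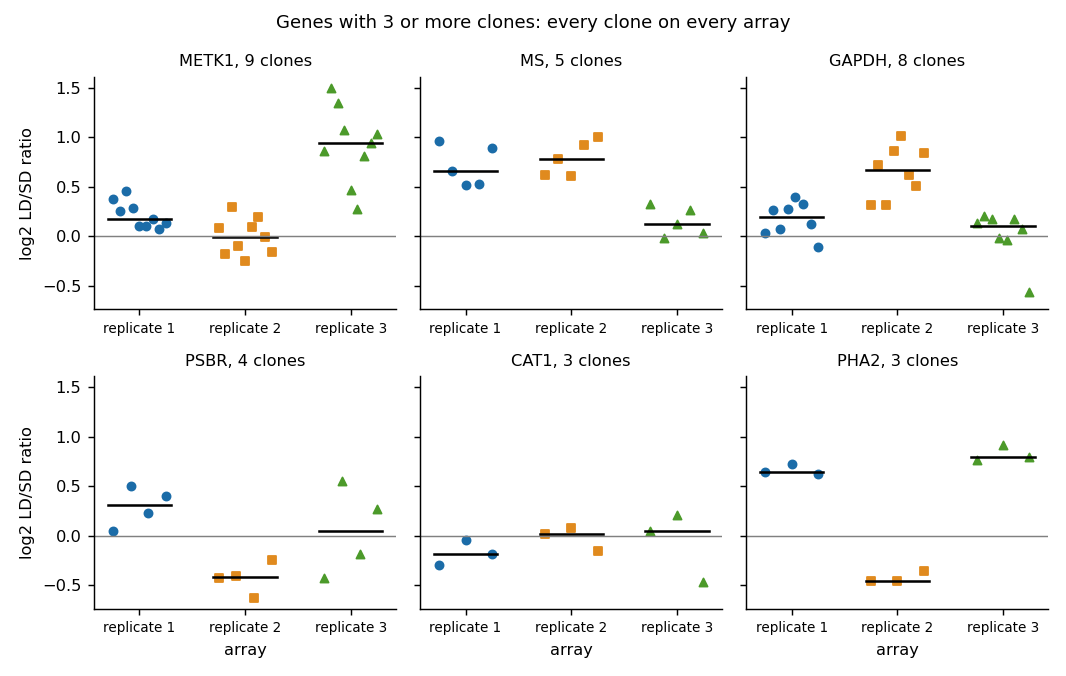
Log2 LD/SD ratio of every tested clone (points) of the 6 listed genes with 3 or more clones, by array, with the median of each array as a black line. METK1 is highest in replicate 3 (median 0.94), MS lowest there (0.12), and the 3 clones of PHA2 are negative in replicate 2 alone.

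Of the central carbon clones, 10 of 11 had a mean above 0, where 72.5% of clones with a symbol did, and 7 were positive on every array. The 10 include all 8 clones of GAPDH, which share a target and are not separate evidence. With the dye term subtracted, 1 GAPDH clone was at -0.03. No clone of the list was called in limma (1 at an unadjusted p of 0.05 or less) or with the methods' t-test. GAPDH, the glycolytic glyceraldehyde 3-phosphate dehydrogenase, had 8 clones with means of 0.06 to 0.46, and its median was 0.20, 0.67 and 0.10 in replicates 1, 2 and 3. LPD2, a dihydrolipoamide dehydrogenase of the mitochondrial dehydrogenase complexes, had 0.45, 0.65 and 0.58 (mean 0.56, SE 0.17, adjusted p = 0.225). Its 3 values lay close together, and it had the lowest p of this list. PDHE1-A, a subunit of pyruvate dehydrogenase, was the exception in direction, with 0.04, -0.30 and -0.61.

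The photosynthesis genes showed no shared direction. The 4 tested clones of PSBR had means of -0.27 to 0.21, and the arrays of all 4 lay on both sides of 0, with a lowest value of -0.63. TK, transketolase of the Calvin cycle, had means of 0.04 and 0.21, and no clone of the list was positive or negative on every array. In the redox list, DHAR2, a dehydroascorbate reductase that recycles vitamin C, had means of 0.73 and 0.30 and was above 0 on every array, led by replicate 2 at 1.69 and 0.76. CAT1, a catalase that removes hydrogen peroxide, had 3 clones with means of -0.27 to 0.08. No clone of either list was called.

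IPMK, an inositol polyphosphate kinase, had the widest spread among the named regulators, with 2.57, 2.32 and -0.58 (mean 1.44, SE 0.58, adjusted p = 0.322). Replicates 1 and 2 were at least 2-fold on the LD side and replicate 3 was on the SD side. Without replicate 3 its mean was 2.44. This omission is quoted because that array had the opposite sign, so no test is read from it. BEL5, a homeodomain protein whose transcript moves to stolons and promotes tubers in potato, had 0.40, 0.72 and 0.43 (mean 0.51, adjusted p = 0.264). CDPK2, a calcium-dependent protein kinase, had 0.44, 0.32 and 0.48 (mean 0.41), and 16R, a 14-3-3 protein, had -0.58, -0.18 and -0.82 (mean -0.53). Of the 6 regulator clones 5 had a mean above 0 and none was called. The auxin response repressor IAA2 averaged 0.01 and PKIN1, an SNF1-related kinase, 0.18, with arrays on both sides of 0. The single measured clone of a defence gene, the vacuolar processing enzyme VPE2, had 0.70, -0.91 and 1.07.

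The plasma membrane proton pump PHA2 had 3 clones that moved as one from array to array, with medians of 0.65, -0.45 and 0.79 in replicates 1, 2 and 3. All 4 clones of the transport list had means above 0 and none was called. No cell wall gene of the lists had a complete spot. Outside the lists, and named after their values were seen, IAA3, another auxin response repressor, had -0.59, -0.73 and -0.31 (mean -0.54, adjusted p = 0.254) and SHMT, serine hydroxymethyltransferase, had 1.24, 0.36 and 0.43 (mean 0.68, adjusted p = 0.263). Of the 39 listed genes 27 had a tested clone. The 12 others, among them the zinc finger gene CO, with -0.27 and -0.09 on 2 arrays, and the pathogenesis gene PR1B, lacked a complete spot, and none of them gets a test.

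**Figure D3:**
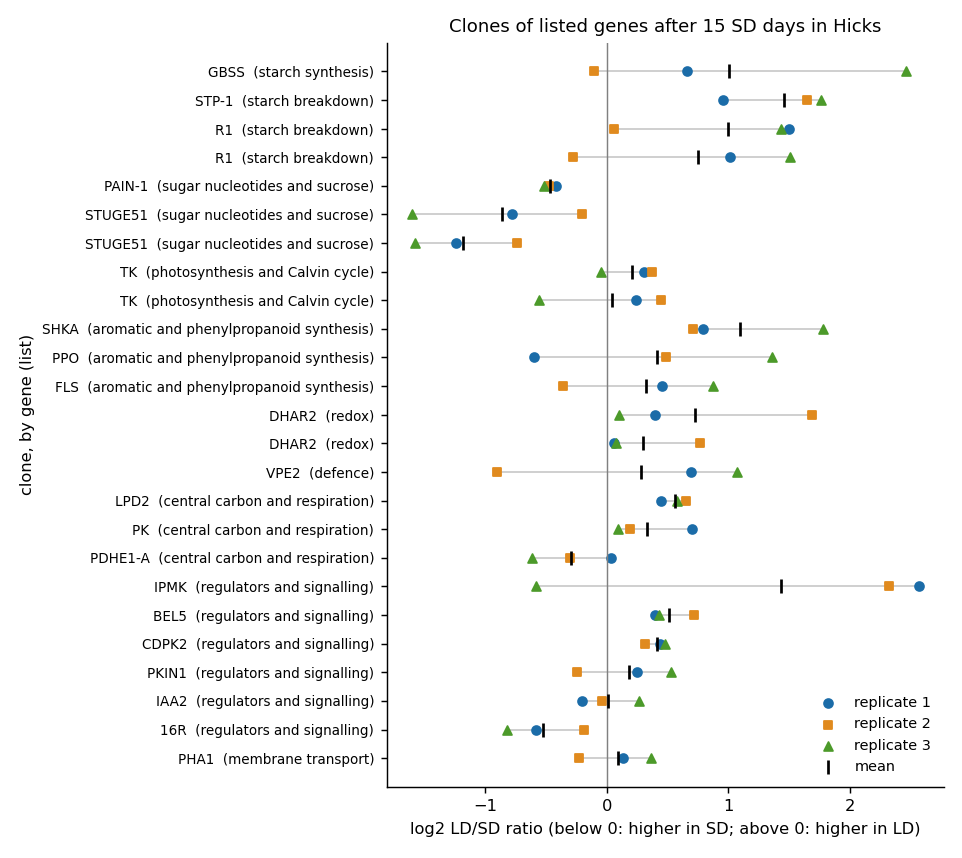
Log2 LD/SD ratio on each array (coloured points) and the mean (black bar) for the tested clones of listed genes, apart from the 6 genes with 3 or more clones. STUGE51 and PAIN-1 lie below 0 on every array, STP-1 and SHKA above 0, and IPMK has 2 arrays above 2 and 1 below 0.

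Some genes known only by a locus number, picked here after their values were seen, were measured by several clones. All 5 clones of LOC102596607 were negative on every array, with means of -0.86 to -0.71 (adjusted p 0.152 to 0.164), and stayed under the 2-fold limit. The 4 clones of LOC102596966 had 2.13 to 2.30 in replicate 1, 1.75 to 2.18 in replicate 2 and -0.40 to 0.04 in replicate 3 (means 1.28 to 1.35), the pattern seen with IPMK.

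That pattern was shared by a group of clones, counted after it was seen in the data. In 30 clones replicates 1 and 2 were at least 2-fold on the LD side and replicate 3 was below 0, whereas 2 clones had such an opposite replicate 2 and 0 such an opposite replicate 1. Toward SD the counts were 1, 3 and 0 for an opposite replicate 3, 2 and 1. The 30 clones had medians of 1.70, 1.57 and -0.73 in replicates 1, 2 and 3, and replicate 3 ranged between -1.36 and -0.01. They include IPMK and 3 of the 4 clones of LOC102596966, and 25 of them have no symbol. On the MM arrays after 15 SD, the same clones were above 0 in 21 of 30, 30 of 30 and 27 of 29 cases with a value. On the Hicks arrays after 1 SD they were above 0 in 30, 27 and 20 of 30 cases, with a median of 1.46 in replicate 1 and 0.27 and 0.16 in replicates 2 and 3. The medians of all clones lay between -0.037 and -0.012 on these MM arrays and between -0.013 and -0.0065 on the 1-day arrays. The 30 clones were chosen by high ratios on 2 Hicks arrays, so these counts carry no test.

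Across all 4231 clones, replicates 2 and 3 were close to unrelated, with a Pearson's r of 0.064. Replicate 1 had an r of 0.426 with replicate 2 and of 0.502 with replicate 3. These values describe clones, which share an array and are not independent. At least 2-fold ratios of the same sign were found on replicates 2 and 3 for 34 clones, and of opposite sign for 17. On all 3 arrays at once, 12 clones were at least 2-fold toward SD and 7 toward LD. The replicates are separate biological samples by the methods, and whether the differences between them came from plants or from arrays was not tested.

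**Figure D4:**
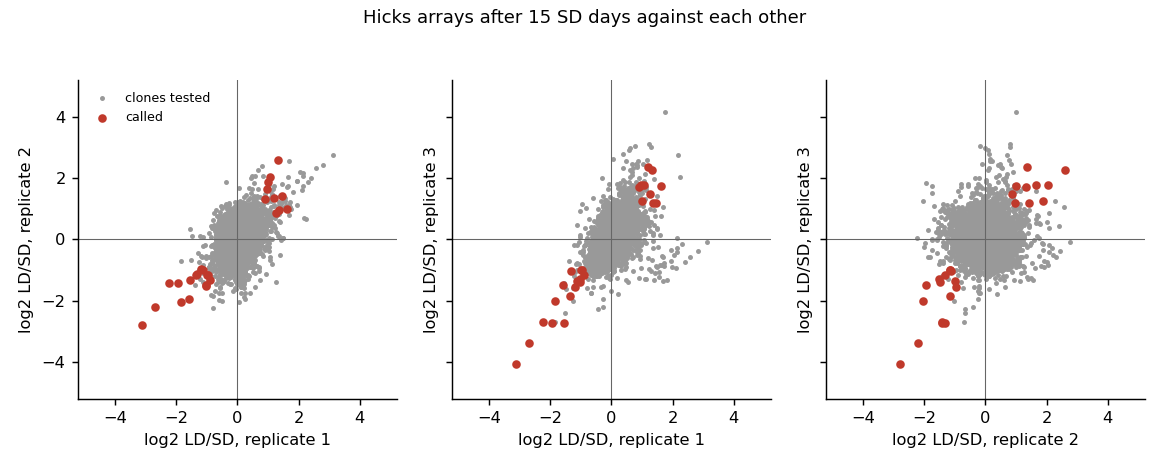
Log2 LD/SD ratio of the 4231 tested clones on 1 array against another, for the 3 pairs of arrays, with the 26 called clones in red. Replicates 2 and 3 have an r of 0.064, and in the panel of replicates 1 and 3 a group of clones stands at high replicate 1 ratios with replicate 3 below 0.

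To ask what 15 SD brought beyond 1 SD, the mean ratios were set against those of 3 Hicks arrays on which the plants had spent 1 day in SD (55 LD and 1 SD, again against 56 LD). The LD extracts of these days carry different numbers, but whether they came from different plants is not given, and its part in the likeness of the days was not tested. No clone of 3677 was called for the difference of the days (0% at the limits above in limma, lowest adjusted p 0.164), while 681 had an unadjusted p of 0.05 or less (18.5%), 348 with a higher and 333 with a lower LD/SD ratio after 15 SD. With Benjamini-Hochberg, the methods' t-test called 1. Without replicate 3 of the 15-day arrays, 202 clones were called.

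The clones higher in SD were mostly so after 1 day already. Of the 24 called clones measured on both days, 23 had the same sign of the mean after 1 SD, against 56.6% of all clones, and 20 had it on every 1-day array, against 31.8%. The 15 clones higher in SD had a median of -1.30 after 15 SD and of -1.16 after 1 SD. The 9 clones higher in LD had a median of 1.39 after 15 SD and of 0.62 after 1 SD. The clones were chosen by their ratios after 15 SD, so these medians carry no test.

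STP-1 was the called clone whose sign was not the same on the 2 days, with a mean of 1.45 after 15 SD and of -0.09 after 1 SD. Its 1-day arrays had -0.96, 0.34 and 0.36. The difference was 1.54 (95% interval 0.68 to 2.40, unadjusted p = 0.00289 and adjusted p = 0.164 from limma). STP-1 was chosen by its ratios on the same 15-day arrays, so this interval and p are not an independent test. R1 differed in the same direction, by 1.11 (0.21 to 2.0) on one clone, with a mean of 1.00 after 15 SD and -0.11 after 1 SD, and by 0.72 (-0.25 to 1.69) on the other (adjusted p = 0.218 and 0.391). For MS all 5 differences were above 0, with 0.86 the largest (0.64 after 15 SD against -0.23 after 1 SD, adjusted p = 0.164). STUGE51 was lower in ratio after 1 SD, with means of -1.18 and -0.86 after 15 SD and of -1.62 and -1.54 after 1 SD, and the intervals of both differences included 0. SHKA had 1.09 after 15 SD and 0.88 after 1 SD, a difference of 0.21 with an interval of -0.77 to 1.19, which leaves room for a change of either sign. IAA2, an auxin response repressor, ran the other way, with a mean of 0.01 after 15 SD and of 0.79 after 1 SD, where all arrays lay between 0.65 and 0.97 (difference -0.79, -1.27 to -0.30, adjusted p = 0.164).

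To ask whether flowering type went with the response, Hicks was compared with MM, which differs from it by the Maryland Mammoth allele, on 3 MM arrays after 15 SD. No clone of 3581 was called for the difference (0% in limma, lowest adjusted p 0.999), and 106 had an unadjusted p of 0.05 or less (2.96%). The methods' t-test with Benjamini-Hochberg also called 0 (108 at an unadjusted p of 0.05 or less). Leaving out replicate 3 of Hicks gave 3 calls. The unadjusted 95% interval of a difference had a median half-width of 0.70 over all clones. Larger differences also missed the adjusted limit, among them 1.57 on clone 150681 and -1.38 on PPO (adjusted p = 0.999 for each from limma). Differences of that size can therefore go uncalled with these arrays.

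Most clones called in Hicks had the same direction in MM. All 26 were measured in MM, and 25 had the same sign on every MM array, against 36.7% of all clones. The 16 clones higher in SD had a median of -1.38 in Hicks and of -1.89 in MM, and the 10 clones higher in LD had 1.42 in Hicks and 1.42 in MM. Over the clones measured in both, the mean ratios of Hicks after 15 SD had a Pearson's r of 0.730 with MM after 15 SD (n = 3581) and of 0.379 with Hicks after 1 SD (n = 3677). The points are clones that share arrays, and the correlations are descriptive. The arrays of MM had a wider spread, with an SD over clones of 0.58 to 0.72.

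Of the 26 called clones 3 differed from MM at an unadjusted p of 0.05 or less in limma, 150681, 161574 and that of LOC102591352, and none at the adjusted limit. Over all clones 106 of 3581 did so (2.96%). The 26 clones were chosen by their ratios on the same Hicks arrays, so their intervals and p-values are not an independent test. Clone 150681, without a symbol, was the one whose mean had the opposite sign in MM. Its ratios were 1.63, 0.99 and 1.74 in Hicks and -0.04, 0.51 and -0.82 in MM. The difference was 1.57 (95% interval 0.75 to 2.40, unadjusted p = 0.00150, adjusted p = 0.999). Clone 161574 had 1.63 in Hicks and 2.76 in MM, a difference of -1.13 (-1.92 to -0.33, adjusted p = 0.999). PPO was at 0.41 in Hicks and at 1.79 in MM, where the arrays had 1.47, 2.05 and 1.86 (difference -1.38, -2.34 to -0.41, adjusted p = 0.999). For STUGE51 the means were -0.86 and -1.18 in Hicks and -1.96 and -1.96 in MM, with differences of 1.09 (0.06 to 2.13) and 0.77 (-0.09 to 1.63). The locus LOC102591352 had -1.45 in Hicks and -2.48 in MM (difference 1.03, 0.35 to 1.71, adjusted p = 0.999). STP-1 had 1.45 in Hicks and 0.91 in MM (difference 0.55, -0.16 to 1.26), and R1 had 1.00 and 0.75 in Hicks and 0.63 and 0.78 in MM. SHKA had 1.09 in Hicks and 1.66 in MM, and the interval of the difference (-1.32 to 0.20) included 0. None of these differences passed the adjusted p limit.

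**Figure D5:**
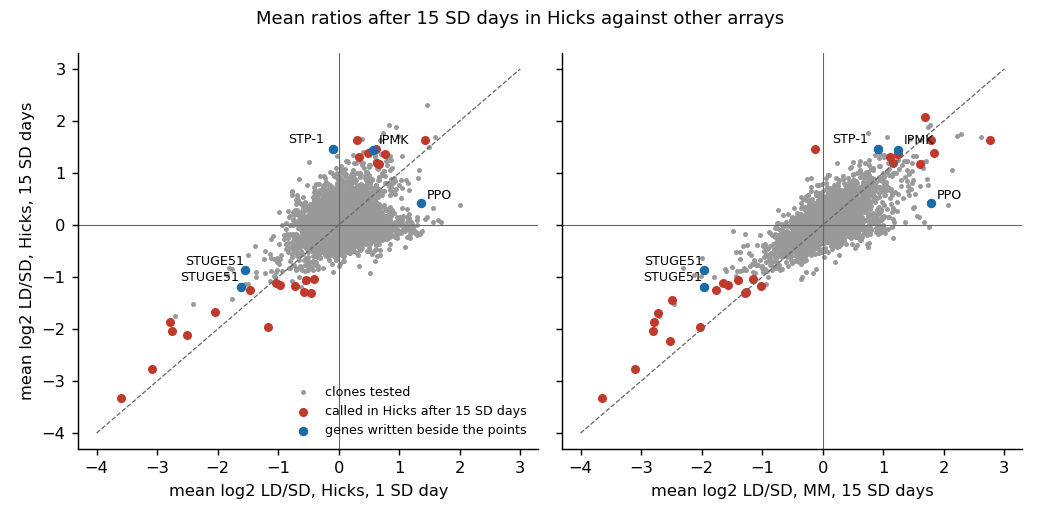
Mean log2 LD/SD ratio of Hicks after 15 SD (vertical axis) against Hicks after 1 SD (left panel, 3677 clones) and MM after 15 SD (right panel, 3581 clones), with called clones in red, genes named in the text in blue and the line of equal ratios dashed. STP-1 lies near 0 on the 1-day axis, at -0.09, and PPO lies right of the line in the MM panel, at 0.41 in Hicks against 1.79 in MM.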

How the data were processed

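The authors hybridized LD and SD leaf RNA on 2-colour potato cDNA arrays of TIGR and normalized them by LOWESS, and they deposited log2 ratios. The submitters' processing notes name limma, with no version or role. The methods define the ratio as LD over SD, and the labels give LD as Cy3 and SD as Cy5 in Hicks. The direction of the deposited values themselves is not stated and was taken from signs in a table of the study: of its 52 entries, 31 matched a clone in size (within 0.02) with the Hicks sign as deposited and 2 with it turned. Direction is therefore not independent of the study. Spots at fixed spacings, which hold all 905 annotated pairs, were averaged into clones, using spots with a value on all 3 arrays.

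The mean of each clone was tested against 0, and differences between groups likewise, by moderated linear models (limma 3.58.1 in R 4.3.3), with Benjamini-Hochberg adjustment over all clones tested. The thresholds are those of the methods. limma replaced their t-test, and each day was fitted alone, whereas the methods pooled the days. The test was checked on simulated data. Errors were drawn there for each clone on its own, so differences shared across an array were not part of that check. The number of arrays limits the precision.

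The arrays, gene lists and thresholds were chosen with earlier results of these data known. Named were the 10 called clones with the largest mean in each direction (few without a symbol are printed), symbol genes past the adjusted p limit, and tested members of 12 lists. The list of housekeeping genes found no symbol on the array. Gene names come from GEO's platform annotation (1630 probes with 1 symbol, 180 with several). Of its 475 gene IDs 0 are in the tobacco gene table, so locus numbers have no description here. Alternatives covered the test, thresholds, centring, scaling, missing values, spots, spread, dye, days, the replicate block and each array left out.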

Additional observations from a re-analysis of the deposited data

Results flagged for a closer look

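On 7 clones of named genes every array after 15 SD in Hicks lay above 0 and every array after 1 SD lay below 0. That is 6.31% of the 111 named or called clones measured on both days, against 138 of all 3677 clones (3.75%), and the opposite pattern was found in 0 of the 111 and in 117 of all clones (3.18%). The clones were picked by these signs, and no difference between the days passed the adjusted p limit in limma. Differences are 15 SD minus 1 SD in log2 LD/SD. GPI differed by 0.99 and 0.80 on its clones, with means of 0.39 and 0.35 after 15 SD and of -0.60 and -0.45 after 1 SD (adjusted p = 0.169 and 0.198). MS, methionine synthase, differed by 0.86 and 0.83 on 2 of its 5 clones, with means of 0.64 and 0.64 after 15 SD and of -0.23 and -0.18 after 1 SD (adjusted p = 0.164 and 0.212). GAPDH differed by 0.69 and 0.46 on 2 of its 8 clones, with means of 0.40 and 0.19 after 15 SD and of -0.29 and -0.27 after 1 SD (adjusted p = 0.211 and 0.265). PEST2 differed by 0.52, with 0.09 after 15 SD and -0.43 after 1 SD (adjusted p = 0.270). Of 112 named or called clones measured in both lines, 0 had all Hicks arrays on one side of 0 and all MM arrays after 15 SD on the other, against 13 above and 29 below in Hicks among all 3581 clones (0.363% and 0.81%).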

How the results depend on the processing

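Of the 26 clones called for the mean ratio, the methods' t-test kept 0 with its q-value and 0 with Benjamini-Hochberg, and an adjusted p of 0.05 kept 3. That t-test was run on the 3 arrays of this day, whereas the methods pooled the days. The count was 68 with arrays scaled to the same spread (27 higher in SD, 41 in LD), 14 with a value on at least 2 arrays, 12 with any spot of the clone, 3 with both spots required and 4 with a robust spread. It was 79 with the spread shared with the 1-day arrays (27 and 52), 60 with all N. tabacum arrays (26 and 34), 69 with the dye term subtracted (28 and 41; the dye term comes from 1 potato dye-swap pair) and 50 with the days pooled (28 and 22), of which 13 were among the 26. No size limit gave 26, centring 28 and single spots 32. Leaving out 1 array gave 0 to 110 calls: 65 without replicate 1, 0 without replicate 2 and 110 without replicate 3. The cause was not tested. No called clone changed sign.

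Among uncalled clones of listed genes, signs turned with the dye term subtracted for PSBR (0.14), PPO (-0.077), FLS (-0.00083), IAA2 (-0.40), METK1 (-0.013), CAT1 (-0.32) and GAPDH (-0.032). With the days pooled they turned for TK (-0.026), PSBR (0.093), METK1 (-0.0745), CAT1 (-0.21) and 3 GAPDH clones (-0.041, -0.0305 and -0.035). IAA2 was at -0.0092 with arrays centred and -0.022 with arrays scaled. Leaving out 1 array gave -0.14 to 0.029 for CAT1, -0.33 to 0.37 for GAPDH, -0.12 to 0.11 for IAA2, -0.07325 to 0.28 and -0.011 to 0.59 for METK1, -0.044 to 0.25 for PHA1, -0.0565 to 0.92 for PPO, -0.41 to 0.0215 for PSBR, -0.16 to 0.34 for TK and -0.11 to 0.88 for VPE2, with 1 clone each but for METK1.

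For the difference between the days, the methods' t-test called 1, and leaving out 1 array gave 0 to 202. For the difference between Hicks and MM, leaving out 1 array gave 0 to 3. In both, the largest count came without replicate 3 of Hicks after 15 SD. With the replicate number as a block, 0 clones were called in either difference (745 and 177 at an unadjusted p of 0.05 or less, against 681 and 106 without it). Whether the numbers pair the arrays was not settled. Deviations of same-numbered arrays from their group means had an r of 0.317, -0.066 and 0.322 with the 1-day arrays. For unlike numbers r ran from -0.429 to 0.245. With MM the same-numbered r was -0.088, 0.191 and 0.140, and r for unlike numbers ran from -0.199 to 0.108. All other settings of these differences called 0.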
